A study of Cucumis sativus with 6 samples.

Results

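The transcripts described here are the 100 that took the most reads in RNA sequencing libraries of the cucumber (Cucumis sativus) shoot apex. They were chosen from 23522 transcript models, which are the 24317 in the deposited tables less 795 whose identifiers contain UNG. The choice used CPM, the estimated count of a model scaled to the total of its library, averaged over all 6 libraries, so a high level is the reason for membership and not a result. Members are called by their rank in that mean, from 1 to 100.

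The labels put 3 libraries in the soil plate group and 3 in the germination pouch group, all from genotype 9930, an inbred line used as a cucumber genome reference, with no treatment named. Apices came from seedlings at 6 dpg kept at 22 degrees in days of 16 h light and 8 h dark. A soil plate library pooled 7 apices from seedlings on meshed soil in an agar plate, and a pouch library pooled 20 apices from seedlings in moist pouches. Pool size and growth condition therefore cannot be told apart. The labels call the samples biological replicates of shoot apical meristem, but with 0 of 24317 identifiers matched to a reference gene table, neither the tissue nor the function of a member was checked against named genes. The deposited files carry names with the opposite growth condition for every library. Directions below follow the sample titles and would all invert if the file names were right.

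A shoot apical meristem is a small dome of dividing cells that forms the leaves, stem and later flowers of the shoot, and a dissected apex usually carries young leaf primordia as well. The most abundant messages of such tissue are as a rule housekeeping messages, which supply ribosomes, the cytoskeleton, energy metabolism and protein turnover. Because a library has a fixed number of reads, reads spent on a few very abundant messages are not available to the rest, and a scaling step such as TMM is used to correct for this. In a bulk sample, fewer cells of a type and less RNA per cell cannot be told apart.

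The 100 transcripts took a larger share of the reads in the soil plate libraries than in the pouch libraries. The share was 19.6, 22.4 and 24.4% of the estimated counts in soil plate replicates 1, 2 and 3, and 17.4, 9.94 and 10.6% in pouch replicates 1, 2 and 3. The groups did not overlap, and pouch replicate 1 stood nearer to soil plate than to the other pouch libraries. The mean share was 22.1% ± 2.40 in soil plate and 12.7% ± 4.14 in pouch (SD, n = 3 each). These shares are given without a test, since the members were chosen on the same values. Most of the difference lay in the first 10 transcripts, which held 8.85% ± 1.15 of the counts in soil plate and 2.71% ± 1.81 in pouch (SD, n = 3 each). Ranks 11 to 100 held 13.3% ± 1.32 in soil plate and 9.96% ± 2.33 in pouch (SD, n = 3 each). The next 900 transcripts, ranks 101 to 1000, held nearly equal shares, 30.3% ± 0.0937 in soil plate and 30.5% ± 0.547 in pouch (SD, n = 3 each). Beside this, the TMM factors were 0.885 ± 0.0499 in soil plate and 1.14 ± 0.120 in pouch (SD, n = 3 each), and depth was 30.7 to 39.5 M (mega) counts in soil plate and 28.9 to 47.8 M in pouch.

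**Figure D1:**
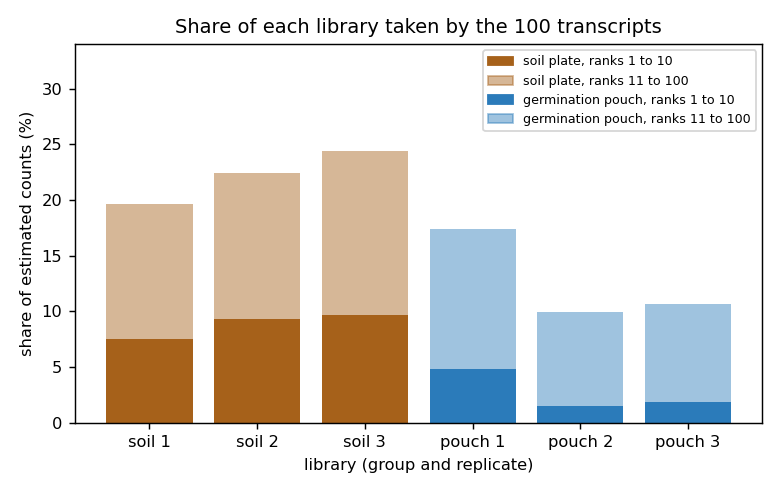
Bars give the share of each library's estimated counts (%) held by the 100 transcripts, split into ranks 1 to 10 (full colour) and ranks 11 to 100 (pale), with soil plate libraries left of pouch libraries. The bars end between 19.6 and 24.4% in soil plate and at 17.4, 9.94 and 10.6% in pouch.

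Mean CPM over the 6 libraries declined along the list, with 10120 CPM at rank 1, 3134 CPM at rank 10, 1180 CPM at rank 50 and 855 CPM at rank 100. These are shares of reads, not levels per length. The threshold cut through a smooth slope, with 860.1 and 855 CPM at ranks 99 and 100 and 850.2 and 843 CPM at ranks 101 and 102, just outside. The lowest estimated count of any member in any library was 7486, so counting error was small beside the spread between libraries.

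The ranking itself was only partly shared between libraries. Each library has its own list of 100 most abundant models, and 80, 73 and 75 members were on the lists of soil plate replicates 1, 2 and 3. On the pouch lists there were 84 members in replicate 1, 53 in replicate 2 and 64 in replicate 3. Only 21 members were on all 6 lists, and the 6 lists together named 192 models. Lists shared 79 to 88 models within soil plate, 57 to 83 within pouch and 28 to 67 between the groups. Membership thus differed by group for some transcripts: 10 members were on every soil plate list and no pouch list, and 14 were on every pouch list and no soil plate list. A further 21 members were on every soil plate list and that of pouch replicate 1, but not on those of pouch replicates 2 and 3. The member at rank 73 stood lowest in a single library, at place 1198 in pouch replicate 2.

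**Figure D2:**
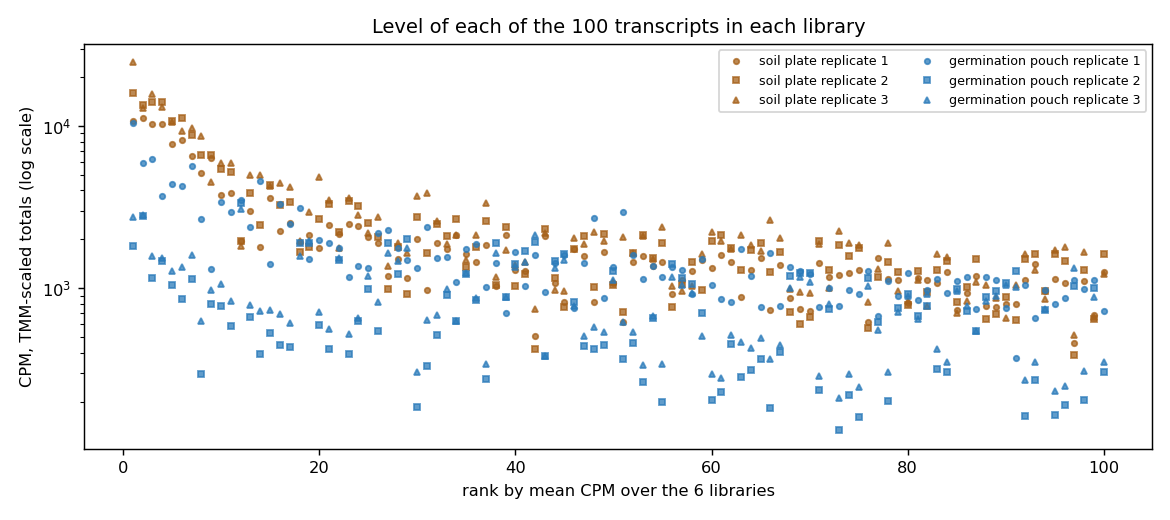
Each point is the CPM (TMM-scaled totals, log scale) of a transcript in a library, against its rank by mean CPM, with soil plate in brown and germination pouch in blue. Over the first 10 ranks the soil plate points lie above the pouch points, and pouch replicate 1 lies above pouch replicates 2 and 3.

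The comparison of soil plate with pouch asks how the apex differs between the growth systems. It was tested with the quasi-likelihood test of edgeR on all 17794 models that passed the filter on low counts, and all 100 members were among them. From here on CPM values use TMM-scaled totals, log2 fold changes are soil plate minus pouch, and the call threshold was an adjusted p of 0.05 (Benjamini-Hochberg). Of the 100 transcripts, 25 passed, with 23 higher in soil plate and 2 lower there. Over all tested models 7.85% passed, 4.92% higher and 2.93% lower. The mean that chose the members does not use the difference between groups, but it favours transcripts that are very high in 1 group. The median log2 fold change was 1.08 over the members and -0.06 over all tested models. With library totals in place of TMM factors, the median of all tested models moved by -0.36, to -0.43, and that of the members became 0.78. In that setting 43 members passed, 29 higher and 14 lower, and 14.6% of all tested models did, 3.02% higher and 11.6% lower.

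The number of members called depended on single libraries. Without pouch replicate 1 it was 68, beside 11.3% of all tested models. Without soil plate replicate 2 it was 1 (1.43% of all models) and without pouch replicate 2 it was 3 (1.36% of all models), of which 1 was higher and 2 were lower. Without soil plate replicate 1 (0.765% of all models) and without pouch replicate 3 (0.573% of all models) edgeR called 0 members, with 54 and 46 members at an unadjusted p under 0.05 (21 and 17.5% of all models); no other tool was run on these subsets. Each of these fits had 2 libraries in an arm. Without soil plate replicate 3, 22 members passed (9.06% of all models). In the fit of all 6 libraries 64 members had an unadjusted p under 0.05, against 24.7% of all tested models. DESeq2 called 43 members and 13.8% of all tested models, and limma-voom called 57 members and 12.5% of all tested models. The median log2 fold change of the members stayed between 0.81 and 1.83 in the fits that each left out a library. The groups did not overlap in 69 members, 52 higher and 17 lower in soil plate, against 33.2% of all tested models (15.5% higher and 17.6% lower).

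**Figure D3:**
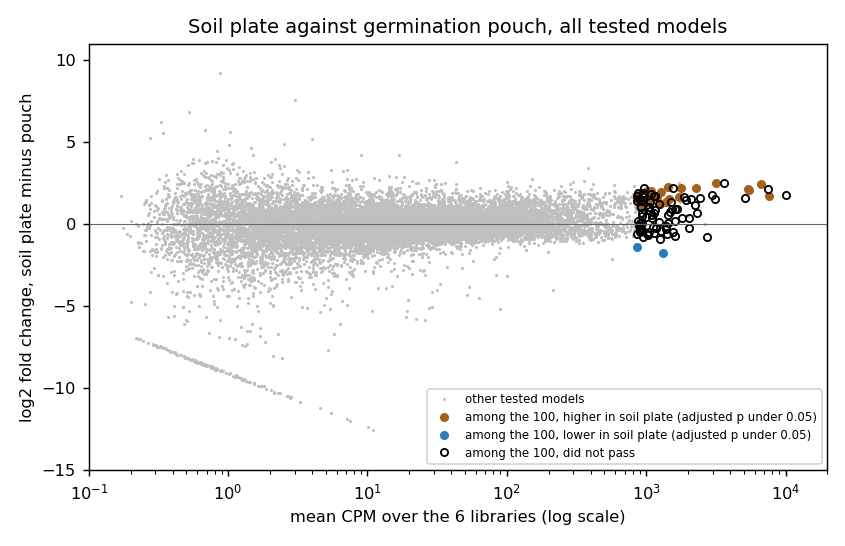
Log2 fold change (soil plate minus pouch) against mean CPM over the 6 libraries (log scale) for all tested models in grey, with the 100 transcripts marked by their call. The 23 called higher lie at log2 fold changes from 1.05 to 2.50 and the 2 called lower at -1.36 and -1.76; the grey diagonal at the lower left holds models with no count in soil plate, whose fitted values depend on the prior count.

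All 10 of the most abundant transcripts had positive log2 fold changes, and 5 of them passed the test, those at ranks 2, 4, 5, 6 and 9. The largest change among called members was at rank 9 (CsaV3_2G006390.1, 3263 bases). It had 6336, 6590 and 4508 CPM in soil plate replicates 1, 2 and 3, and 1315, 794 and 973 CPM in pouch replicates 1, 2 and 3. The lowest soil plate library was far above the highest pouch library. The log2 fold change of rank 9 was 2.50 with an SE of 0.33 (adjusted p by edgeR 0.00611). The call held in 4 of the 6 fits that left out a library, and the edgeR adjusted p was 0.0507 without soil plate replicate 1 and 0.0581 without pouch replicate 3.

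The next largest called rise was at rank 4 (CsaV3_1G038690.1, 3979 bases). It had 10333, 14077 and 13101 CPM in soil plate replicates 1, 2 and 3, and 3683, 1475 and 1534 CPM in pouch replicates 1, 2 and 3. The groups were far apart, and pouch replicate 1 was the highest of its group. The log2 fold change was 2.49 with an SE of 0.44 (adjusted p by edgeR 0.0163). When replicate 1 or 2 of soil plate or replicate 2 or 3 of pouch was left out, the edgeR adjusted p was 0.0608 to 0.0954.

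The transcript at rank 1, the most abundant of all, did not pass. It had 10656, 16055 and 24639 CPM in soil plate replicates 1, 2 and 3, and 10487, 1824 and 2735 CPM in pouch replicates 1, 2 and 3. The groups did not overlap, but pouch replicate 1 came within a few percent of soil plate replicate 1, and the log2 fold change was 1.77 with an SE of 0.65 (adjusted p by edgeR 0.130). The transcript at rank 2 was steadier within soil plate, with 11266, 13467 and 12857 CPM there and 5881, 2793 and 2823 CPM in pouch. The log2 fold change was 1.71 with an SE of 0.39 (adjusted p by edgeR 0.0334). Ranks 3, 7, 8 and 10 had log2 fold changes of 2.15, 1.58, 2.50 and 1.52 and adjusted p of 0.0652, 0.124, 0.0646 and 0.112 (edgeR). Without pouch replicate 1 all 10 passed, and the same edgeR test called 0 of the 10 when soil plate replicate 1 or pouch replicate 3 was left out (10 and 7 of them had an unadjusted p under 0.05 there).

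Among the other called rises, the 8 with the largest changes after ranks 9 and 4 had log2 fold changes of 1.95 to 2.24 and stood at ranks 37, 23, 15, 6, 5, 61, 71 and 43. Rank 15 may serve as an example, with 3616, 4307 and 4264 CPM in soil plate and 1409, 533 and 739 CPM in pouch (replicates 1, 2 and 3). The soil plate values lay close together, and the pouch values were spread over a range of more than 2-fold. The smallest change among the called rises was at rank 87, at a log2 fold change of 1.05 with an SE of 0.25 (adjusted p by edgeR 0.0403).

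A called fall in soil plate was seen for only 2 members, although 26 members had negative log2 fold changes. The larger was at rank 42 (CsaV3_2G014690.1, 1606 bases), which had 506, 425 and 742 CPM in soil plate replicates 1, 2 and 3, and 1598, 1923 and 2126 CPM in pouch replicates 1, 2 and 3. All pouch libraries were more than 2-fold above all soil plate libraries, and pouch replicate 1 stood with its group. The log2 fold change was -1.76 with an SE of 0.29 (adjusted p by edgeR 0.0135). In pouch replicates 2 and 3 it was the model with the 4th most reads of all ranked models, whereas in soil plate it stood at places 254, 376 and 174 in replicates 1, 2 and 3. It lost the call when replicate 1 or 2 of soil plate or replicate 3 of pouch was left out, at edgeR adjusted p of 0.0593 to 0.0799.

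The other called fall was at rank 97 (CsaV3_7G002960.1, 749 bases). It had 457, 386 and 516 CPM in soil plate replicates 1, 2 and 3, and 1123, 1035 and 1334 CPM in pouch replicates 1, 2 and 3. Here too the groups were more than 2-fold apart. The log2 fold change was -1.36 with an SE of 0.24 (adjusted p by edgeR 0.0160). It lost the call without the same libraries as rank 42, at adjusted p of 0.0688 to 0.0874.

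Differences near 0 were found as well, and 25 members had log2 fold changes between -0.5 and 0.5. The 5 nearest to 0 were at ranks 86, 41, 35, 82 and 91, with log2 fold changes of 0.05, -0.08, 0.08, 0.08 and -0.10. Rank 35 was even across all libraries, with 1631, 1353 and 1482 CPM in soil plate and 1755, 1231 and 1234 CPM in pouch (replicates 1, 2 and 3). Its log2 fold change had an SE of 0.26, so small changes in either direction would not be seen. Rank 91 had 794, 640 and 1051 CPM in soil plate and 373, 1276 and 1014 CPM in pouch, where replicate 1 stood far below its group. With library totals the log2 fold changes of members shift down with all models, and 67 members were positive there against 74 with TMM factors.

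The members varied more within pouch than within soil plate, mainly between pouch replicate 1 and the other pouch libraries. The median SD of log2 CPM was 0.24 in soil plate and 0.64 in pouch over the members, and 0.37 in soil plate and 0.28 in pouch over all tested models. Between pouch replicates 2 and 3 alone, the members' median SD was 0.17. Pouch replicate 1 was more than 2-fold above both other pouch libraries in 50 of the 100 members, in 28 of the 100 models at ranks 101 to 200, in 13.7% of ranks 101 to 1000 and in 6.20% of all tested models. It lay above both other pouch libraries and below every soil plate library in 50 members, in 37 of the models at ranks 101 to 200, in 27.9% of ranks 101 to 1000 and in 8.18% of all tested models. It was also the shallowest library, at 28.9 M counts against 46.6 and 47.8 M in the other pouch libraries, and the part of depth in this was not tested.

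This position of pouch replicate 1 went with the direction of the fold change. The link is in part built in, since low values in both other pouch libraries raise the fold change as well. The same counts by direction over all tested models are not given here. Of the 74 members with a positive log2 fold change, 49 had pouch replicate 1 more than 2-fold above both other pouch libraries. Of the 26 with a negative one, 1 did. Among members with a log2 fold change above 1, the 29 that did not pass the test had a median log2 fold change of 1.62 and the 23 that passed one of 1.71. The median SD of log2 CPM in pouch was 1.22 in those that did not pass and 0.63 in those that passed. At like fold changes the test passes members with less spread, so this difference follows from the split by call.

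**Figure D4:**
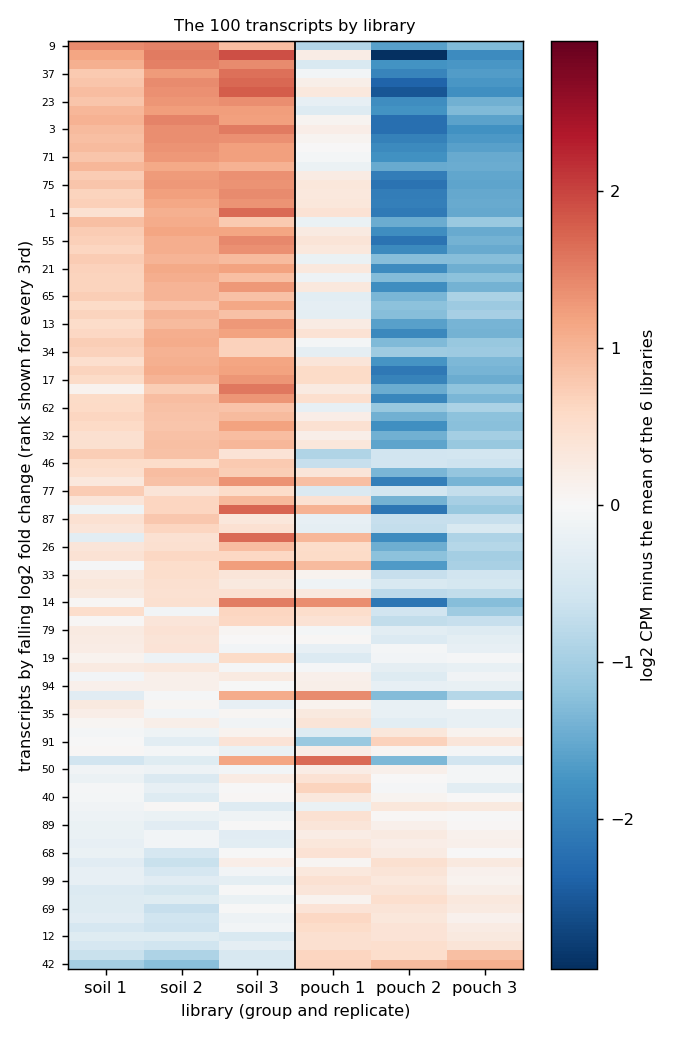
Rows are the 100 transcripts by falling log2 fold change (rank shown for every 3rd), columns are libraries with soil plate left of pouch, and colour is log2 CPM minus the mean of the 6 libraries. In most of the upper rows soil plate is high, pouch replicates 2 and 3 are low and pouch replicate 1 lies between, while in the lowest rows the 3 pouch libraries stand together.

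A smaller set of members was high in a library of each group. In 12 members soil plate replicate 3 and pouch replicate 1 both exceeded all 4 other libraries, as they did in 10 of the 100 models at ranks 101 to 200 and in 5.55% of all tested models. Rank 14 had the widest spread, with 1789, 2444 and 4995 CPM in soil plate replicates 1, 2 and 3, and 4549, 395 and 726 CPM in pouch replicates 1, 2 and 3. Its SD of log2 CPM was 0.76 in soil plate and 1.83 in pouch, and its log2 fold change of 0.70 had an SE of 0.80. Rank 51, a long model of 7400 bases, was also highest in these 2 libraries, with 618, 716 and 2064 CPM in soil plate and 2948, 367 and 620 CPM in pouch. Ranks 66, 8 and 16 completed the 5 with the widest spread in a group, with pouch SDs of 1.62, 1.61 and 1.52. Within soil plate, replicate 3 was the highest of the group in 60 members, in 52 of the 100 models at ranks 101 to 200, in 47.7% of ranks 101 to 1000 and in 36.6% of all tested models.

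Per length, the order of the members was very different. TPM, in which each count is divided by the effective length of its model, ran from 90.1 TPM at rank 60, the longest member at 8726 bases, to 108610 TPM at rank 6, the shortest at 210 bases. The median was 529 TPM over the members and 10.1 TPM over all tested models. Only 29 members were among the 100 models with the highest mean TPM, whose median length was 414 bases, against 2113 bases for the members and 1838 bases for all tested models.

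A very short model can take a large share of all TPM, since its effective length is far below its own length. Rank 6 had effective lengths of 34.3, 34.4 and 37.5 bases in soil plate and 34.2, 30.4 and 32.8 bases in pouch (replicates 1, 2 and 3). It had 158605, 197560 and 144576 TPM in soil plate and 83644, 27131 and 40145 TPM in pouch. In counts it was called higher in soil plate, with a log2 fold change of 2.16 and an SE of 0.56 (adjusted p by edgeR 0.0491). The 3 members under 300 bases (ranks 6, 8 and 59) held 27.6% ± 2.30 of all TPM in soil plate and 9.07% ± 5.47 in pouch (SD, n = 3 each). The 97 others held 9.68% ± 0.535 in soil plate and 9.25% ± 1.14 in pouch (SD, n = 3 each). The difference in the members' share of TPM thus lay almost wholly in the 3 short models. TPM has 1 common total in all libraries, so a larger share in these 3 leaves less for all other models. The near-equal shares of the 97 therefore do not show that their levels were equal.

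**Figure D5:**
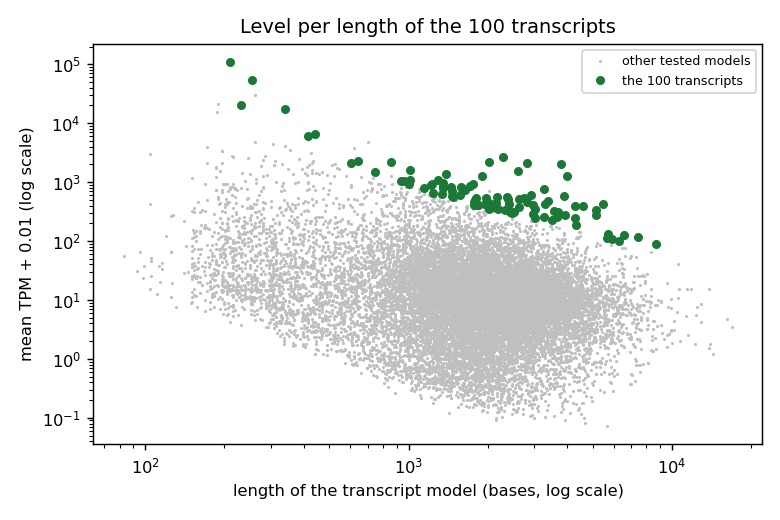
Mean TPM over the 6 libraries (log scale, 0.01 added for the other models) against the length of the transcript model (bases, log scale), with the 100 transcripts in green and the other tested models in grey. The members form the upper edge, from 108610 TPM at 210 bases down to 90.1 TPM at 8726 bases.

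Some members cannot be separated fully from similar sequences. In 13 members the estimated count was fractional in 1 library or more, as it is when reads are split over models, against 17.8% of all tested models. Ranks 4, 9 and 97 were among them, so their values are uncertain to the extent that reads were split. No member shared its counts with another model in all libraries (0 of 100). Neither names nor positions are paired with the identifiers in the files. By the digit before G in the identifier, 15, 20, 18, 13, 9, 17 and 8 members carried 1 to 7. Of all tested models 14.3, 11.9, 20.1, 11.6, 13.2, 16.5 and 9.79% carry these digits. There were 5 pairs of members whose identifiers differ by at most 30 in number under the same digit. In 3 pairs, ranks 2 and 4, 6 and 9, and 15 and 67, both members were called higher in soil plate. In the other pairs, ranks 12 and 61 and ranks 41 and 60, the log2 fold changes had opposite signs, at -0.79 and 2.06 and at -0.08 and 1.83. How often such pairs occur, or are called together, among all tested models is not given here, so nothing is read from these pairs.

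The calls did not stop at the threshold of 100. Of ranks 101 to 200, 22 of 100 passed the edgeR test, all of them higher in soil plate, with a median log2 fold change of 0.44. Of ranks 101 to 1000, 20.4% passed, 152 higher and 32 lower, with a median of 0.21. The share called was therefore near that of the members in these neighbouring ranks, and the median log2 fold change was highest over the members. Their choice by mean CPM favours large values in 1 group, whichever group that is, and its part in this median was not tested. The median was 0.94 over the 100 models chosen by the geometric mean of the group means. It was 1.28 over those chosen by median CPM and 0.10 over those chosen by mean TPM.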

How the data were processed

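Reads were processed with fastp 0.23.4 and kallisto 0.46.1, per the submitters' processing notes; index, options and genome build are not given in the sources used here. The deposited estimated counts (expected counts) are not normalized, and the deposited TPM values are divided by effective length and have 1 common total in all libraries, per the file headers and values. Estimated counts were rounded, filtered with filterByExpr and scaled with TMM. Groups were compared with edgeR 4.0.16 in R 4.3.3 (glmQLFit, glmQLFTest, two-sided, no replicate block), with Benjamini-Hochberg adjustment over all 17794 tested models. SE was derived as the size of the log2 fold change over the root of the F statistic. SDs of log2 CPM used a pseudocount of 0.5. The test was tested on simulated data. No library was a copy of another (smallest chi-square per degree of freedom 47.4). Replicates are separate samples per the labels; whether they came from separate sowings is not stated, so p-values cover the spread between these samples. Libraries held 28.9 to 47.8 M counts without molecular identifiers.

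The members, lists and rules were chosen with earlier results of these data known. Identifiers are printed for the 2 largest called rises and the 2 largest called falls without overlap between groups; other members go by rank. Those described are the first 10, the 10 largest called rises, the called falls, the 5 smallest absolute changes, the 5 largest within-group SDs and members with fractional counts. Other examples were chosen after their values were seen. Alternatives covered scaling, the filter, DESeq2 1.42.0, limma 3.58.1 (with voom, and on log2 TPM), a replicate block, each library left out and other choices of members. No sequence or gene name was matched in the reference table (23999 genes).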

Additional observations from a re-analysis of the deposited data

Results flagged for a closer look

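The models with UNG in their identifiers were left out of the ranking. Had they been kept, 7 of them would have stood among the 100 most abundant. The models with UNG identifiers as a class held 1.24 to 1.34% of soil plate counts and 0.647 to 1.44% of pouch counts. They were flagged because the ranking does not use them. The edgeR fit did use them, and those that passed the low-count filter are among the 17794 tested models. They thus entered the scaling, the adjustment of p and the shares over all tested models. With UNG models kept in the ranking, 25 of the 100 were called as well, beside 7.85% of all tested models. No result for the UNG models by themselves is given here.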

How the results depend on the processing

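The 25 members changed became 43 with library totals alone, 43 with DESeq2, 57 with limma-voom, 5 with log2(TPM + 0.1) (2.79% of all tested models), 15 with 50 members and 47 with 200 members; the last 2 differ by construction. All 25 were also called with RLE, upper quartile scaling, no low-count filter, DESeq2 and limma-voom. Of the 25, 24 were called with library totals, 21 with log2(TPM + 1) and 5 with log2(TPM + 0.1). With log2(TPM + 1) 35 members were called, beside 10.2% of all tested models. With no low-count filter 33 were called (7.76% of 20832 models), with RLE 25 (7.92%) and with upper quartile scaling 26 (7.86%). The count was 0 to 68 in the fits that each left out a library. With the replicate block 8 members were changed, all of them among the 25, beside 3.53% of all tested models. Across genes, libraries with the same number deviated from their groups with correlations of -0.03, -0.06 and -0.02. No shared deviation by number was thus seen across genes, but this cannot tell whether such samples were sown or prepared together. The share of changed members higher in soil plate, 92.0%, became 67.4% with library totals, 65.7% with log2(TPM + 1) and 60.0% with log2(TPM + 0.1). Over all called models this share was 62.7% in the main fit. Of all tested models, 3.02% were called higher and 11.6% lower with library totals. With log2(TPM + 1) these were 1.45 and 8.78%, and with log2(TPM + 0.1) they were 0.332 and 2.46%. In the fits that left out a library the members' share was 33.3 to 100%. The lowest value, without pouch replicate 2, came from 3 calls, and the highest, without soil plate replicate 2, from 1 call. Without soil plate replicate 1 and without pouch replicate 3 there were 0 calls and so no share. The median log2 fold change, 1.08, was 0.81 to 1.83 in those fits and 0.10 over the 100 models with the highest mean TPM. The difference between groups in the share of counts, 9.46 percentage points, was 5.11 for the models with the highest mean TPM, 18.9 as a share of deposited TPM, and 8.10 to 11.8 with a library left out. The 69 members without overlap, beside 33.2% of all tested models, became 35 with 50 members and 128 with 200 members. They were 70 with CPM on library totals, an alternative chosen after seeing the data. With a library left out they were 70 to 91, but this count cannot fall when fewer libraries are compared. The share over all tested models is not given for these alternatives. The 21 members on every library's own list became 11 with 50 members, 66 with 200 members and 44 with members and lists by TPM. They were 21 to 32 with a library left out, where the count likewise cannot fall. Where not stated, the cause was not tested. The 4 named members kept their direction in every alternative and lost the call in 2, 4, 3 and 4 of 15 for ranks 9, 4, 42 and 97. Every member had at least 7486 counts in each library.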
